A study of Gallus gallus with 4 samples.

Results

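The genes described here make sterols and fatty acids or control the cells' supply of them. The rule named 9 genes: HMGCS1, SQLE, INSIG1, SREBF1, SREBF2, FASN, SCD, ACACA and SOAT1. Of these, 8 were found by gene name, and SREBF1 was found under its older name SREBP-1, which the RefSeq gene table for chicken assembly GRCg7b gives as a synonym of SREBF1 on the same chromosome, 14. All 9 passed the filter of at least 1 FPKM (RNA fragments per transcript length and sequencing depth) in at least 1 library, out of 11773 genes that did so. RNA-seq covered the chick area vasculosa at HH10, HH11, HH12 and HH13, stages named after Hamburger and Hamilton. This is the ring of yolk sac around the embryo where the first blood cells and vessels form, above an endoderm that takes up yolk. Each stage has 1 library, so stage differences lack a replicate check and values carry no standard deviation. Strain, sex and the number of embryos per library are not stated in the labels used.

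Cells build cholesterol from acetyl-CoA through the mevalonate pathway, and fatty acids from acetyl-CoA through malonyl-CoA. In mammals both routes are switched on by the SREBP transcription factors, which are held in the endoplasmic reticulum with the escort protein SCAP and the INSIG proteins while sterol is plentiful, and are cut loose and sent to the nucleus when sterol runs short. SREBF2 encodes the form that mainly drives sterol genes, and SREBF1 encodes forms that mainly drive fatty acid genes. Yolk is rich in cholesterol and triglyceride, and the yolk sac endoderm is known for taking up yolk lipid, re-esterifying it and passing it to the embryo in lipoproteins.

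The main pattern was a small one. On the log2(FPKM + 1) scale used for calls, no member was at least 2-fold apart between adjacent stages or between HH13 and HH10. Of all genes, 1.58% to 9.39% were, in each direction of these pairs. In plain FPKM, SREBF1 had 2.01 times its HH10 value in HH13. Of the 9, 7 had their highest value in HH11: HMGCS1, SQLE, INSIG1, SREBF2, FASN, SCD and ACACA. Of all genes tested, 28.4% were highest in HH11. SREBF1 and SOAT1 were highest in HH13, as were 33.6% of all genes. No member was lowest in HH11, where 26.3% of all genes were. HMGCS1, SQLE, FASN and SCD were lowest in HH13 (34.8% of all genes), SREBF2, ACACA and SOAT1 in HH12 (18.2%), and INSIG1 and SREBF1 in HH10 (20.7%). Together the members summed to 416 FPKM in HH10, 490.5 FPKM in HH11, 378 FPKM in HH12 and 390.2 FPKM in HH13, which is 0.0437%, 0.0643%, 0.0454% and 0.0439% of the total FPKM of each library.

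**Figure D1:**
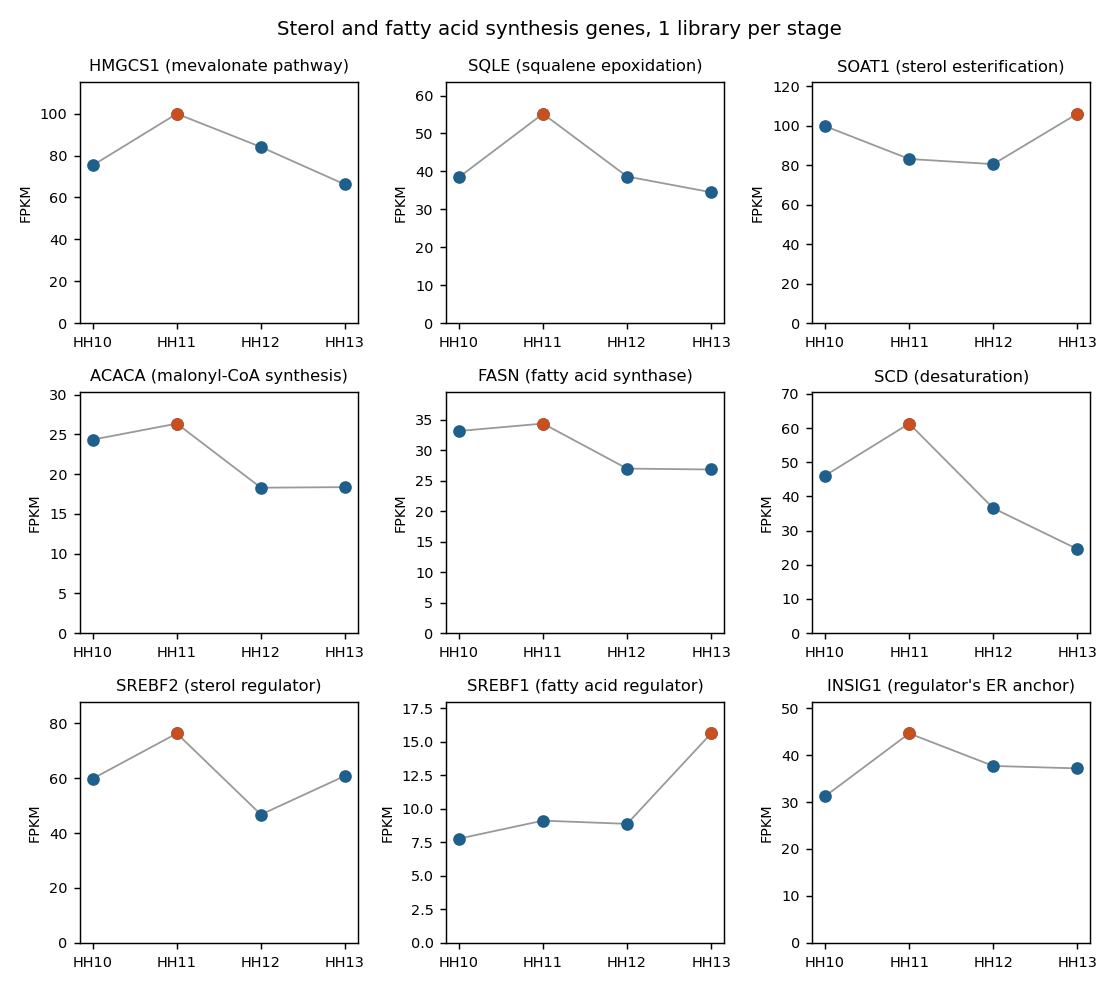
FPKM (vertical axes, each from 0) of the 9 genes in the HH10, HH11, HH12 and HH13 libraries (horizontal axes); each point is 1 library, and the orange point is the highest. The orange point stands at HH11 in 7 panels and at HH13 for SOAT1 and SREBF1.

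The libraries differ in ways that bear on these values. Total FPKM was lowest in HH11, at 762831, and highest in HH10, at 952203, and the number of reads is unknown. The share of total FPKM in 5.8S ribosomal RNA rows was 5.94% in HH10 and 0.574% to 1.46% in the other libraries. Genes on chromosome Z were higher in HH10: over 535 of them the median difference in log2(FPKM + 1) was -0.51 for HH11 minus HH10, against 0.03 for genes on numbered chromosomes. Markers of the cells in the tissue also moved between libraries. The 15 measured of 18 yolk sac endoderm markers, none at 0, summed to 13731, 5799, 18141 and 51524 FPKM in stage order, and all 15 were lowest in HH11 and highest in HH13. Endothelial markers summed to 47.4 to 225 FPKM (11 of 12 measured), primitive blood markers to 323 to 34413 FPKM (9 of 14) and mesenchyme markers to 98.8 to 960 FPKM (11 of 12), each lowest in HH11 and highest in HH13. The ectoderm and epithelial markers, 12 of 12 measured, had their lowest sum in HH10, at 3974 FPKM, and their highest in HH11, at 6458 FPKM. Of these sums KRT19 alone had 2075 FPKM and 4053 FPKM. Among the 11 that passed the filter, 6 were highest in HH11, 4 in HH13 and 1 in HH12. Neural and cardiac markers (8 of 12 measured) summed to 103, 56.2, 24.6 and 29.6 FPKM in stage order. HBE1, KRT7, TWIST2, SOX2 and NKX2-5 were listed at 0 in at least 1 library. The part of these shifts in the members' values was not tested, and in such bulk RNA fewer cells of a type and less RNA per cell cannot be told apart.

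The sterol pathway enzymes among the members shared a course. HMGCS1, the cytosolic HMG-CoA synthase at the start of the mevalonate pathway, lies on chromosome Z at 13514301 to 13524158 of build galGal4. It had 75.3 FPKM in HH10, 99.9 FPKM in HH11, 84.1 FPKM in HH12 and 66.2 FPKM in HH13. SQLE, the squalene epoxidase of the pathway, lies on chromosome 2 at 138265073 to 138279203 and had 38.5, 55.2, 38.7 and 34.5 FPKM in stage order. Both were highest in HH11 and lowest in HH13. HMGCS1 stayed between 1.81 and 2.17 times the FPKM level of SQLE in the 4 libraries, although its own highest value was 1.51 times its lowest. In log2(FPKM + 1), a scale that makes differences of weakly expressed genes look smaller, HH11 minus HH10 was 0.40 for HMGCS1 and 0.51 for SQLE. These differences were above those of 86.7% and 91.2% of all genes tested. HMGCS1 is the only member on Z, and its difference lay above 0 while the Z median was -0.51.

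ACACA and FASN were also highest in HH11, by less, and unlike HMGCS1 and SQLE they were higher in HH10 than in HH12. ACACA, the acetyl-CoA carboxylase that makes malonyl-CoA, on chromosome 19 at 8446046 to 8541999, had 24.3, 26.4, 18.3 and 18.4 FPKM from HH10 to HH13. FASN, the fatty acid synthase that builds palmitate from it, on chromosome 18 at 4886002 to 4935063, had 33.2, 34.4, 27.0 and 26.9 FPKM. The 2 early libraries lay above the 2 late ones for both genes. The FPKM level of FASN was 1.36, 1.30, 1.48 and 1.46 times that of ACACA in stage order. A narrow range of this ratio follows where both genes vary little, and the highest value of ACACA was 1.44 times its lowest. FASN also had the smallest spread of the 9 genes, with a highest value 1.28 times its lowest.

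SCD, the desaturase that turns saturated into monounsaturated fatty acids, was the member with the widest range. It lies on chromosome 6 at 17049074 to 17064687 and had 46.1 FPKM in HH10, 61.3 FPKM in HH11, 36.6 FPKM in HH12 and 24.6 FPKM in HH13. Its value in HH11 was 2.49 times that in HH13, and it was the only member whose highest and lowest libraries were at least 2-fold apart on the log2(FPKM + 1) scale. Of all genes tested, 25.2% had such a spread, and 20.2% of those with a mean of at least 5 FPKM. The FPKM level of SCD stood at 1.39, 1.78, 1.35 and 0.916 times that of FASN in stage order, so the library in which SCD was below FASN was HH13.

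Among the regulators, SREBF2 and INSIG1 were highest in HH11 and SREBF1 was not. SREBF2, on chromosome 1 at 49351394 to 49367782, had 59.9, 76.3, 46.8 and 60.9 FPKM in stage order, with its lowest value in HH12. Its locus also holds the row of the microRNA gga-mir-33, which was listed at 0 in all 4 libraries. INSIG1, on chromosome 2 at 7827461 to 7832977, which retains SREBP in the endoplasmic reticulum and is itself a target of SREBP in mammals, had 31.2, 44.6, 37.7 and 37.2 FPKM. INSIG1 was lowest in HH10 and, unlike SCD, HMGCS1 and SQLE, not lowest in HH13.

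SREBF1 had the lowest level of the 9 genes in every library and a different course. Its row, on chromosome 14 at 4902468 to 4909023, had 7.77, 9.11, 8.87 and 15.6 FPKM in stage order. The first 3 libraries lay close together and HH13 stood above them, 2.01 times the HH10 value in FPKM. That difference was 0.92 on the log2(FPKM + 1) scale, just under the 2-fold line. The FPKM level of SREBF2 was 7.70, 8.38, 5.27 and 3.90 times that of SREBF1 in stage order, lowest in HH13.

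SOAT1, an enzyme of the endoplasmic reticulum that esterifies cholesterol for storage, had among the highest levels of the set. On chromosome 8 at 6145935 to 6172666, it had 99.8, 83.2, 80.5 and 106 FPKM in stage order, a highest value 1.32 times its lowest. HH10 and HH13 lay above HH11 and HH12. SOAT1 had the highest level of the 9 genes in HH10 and HH13, and HMGCS1 did in HH11 and HH12. In all 4 libraries these were the top pair, SREBF2 was the third, and ACACA and SREBF1 were last. With 1 library a stage, the spread around these places is unknown.

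The first step, HH11 against HH10, had 8 of 9 members higher in HH11, with a median difference of 0.35 in log2(FPKM + 1). Over all genes tested the median was 0.01, and 51.8% of genes were higher in HH11. Members at least 2-fold higher numbered 0, against 2.17% of all genes, and members at least 2-fold lower also 0, against 4.32%. SOAT1 was the gene below 0, at -0.26. FASN and ACACA, at 0.05 and 0.11, moved least among the others. With libraries scaled to the same total FPKM, the median of all genes moved up by 0.29, SOAT1 came to 0.06 and 47.6% of all genes were highest in HH11.

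At the second step, HH12 against HH11, all 9 members were lower in HH12, as were 49.5% of all genes. The median was -0.34, against 0.00 over all genes. Members at least 2-fold lower numbered 0, against 1.58% of all genes, and at least 2-fold higher 0, against 4.42%. SCD, at -0.73, and SREBF2, at -0.70, were the furthest from 0, and SREBF1 and SOAT1, at -0.03 and -0.05, the nearest. Because both steps use the HH11 library, a high value there enters both with opposite signs.

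The third step, HH13 against HH12, split the members, 4 higher and 5 lower in HH13, where 49.5% of all genes were higher. SREBF1, SOAT1 and SREBF2 were higher in HH13, by 0.75, 0.39 and 0.37, and ACACA by 0.01. SCD was lower by a difference of -0.55 and HMGCS1 by -0.34, and FASN, INSIG1 and SQLE were lower at -0.01, -0.02 and -0.16. The counts past 2-fold were 0 higher, against 8.53% of all genes, and 0 lower, against 2.95%. The members' median was -0.01, next to 0.00 for all genes. Scaled to the same total, ACACA was at -0.08, so its sign at this step depends on the scaling.

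Over the whole interval, HH13 against HH10, 4 members were higher and 5 lower, with a median of -0.15, while 49.8% of all genes were higher. Members past 2-fold numbered 0 in each direction, against 9.39% of all genes higher and 4.06% lower. SREBF1, with 15.6 FPKM in HH13 and 7.77 FPKM in HH10, was the furthest above 0 at 0.92. At equal library totals this became 1.01, which passes the 2-fold line. SCD, with 24.6 FPKM in HH13 and 46.1 FPKM in HH10, was the furthest below at -0.88, lower than the difference of all but 5.24% of genes. INSIG1 was at 0.24, SOAT1 at 0.09, SREBF2 at 0.02, SQLE at -0.15, HMGCS1 at -0.18, FASN at -0.29 and ACACA at -0.39.

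The single call among the members came from HH13 against HH11, where 1 was at least 2-fold lower, against 5.39% of all genes, and 0 were at least 2-fold higher, against 13.1%. This was SCD, at -1.28, with 24.6 FPKM in HH13 and 61.3 FPKM in HH11. SQLE was at -0.66 and HMGCS1 at -0.59. In this pair 7 of 9 members were lower in HH13, as were 51.9% of all genes, and SREBF1 and SOAT1 were higher, at 0.72 and 0.35. All 9 members lay inside the middle 95% of all genes in each of the 6 pairs of stages.

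**Figure D2:**
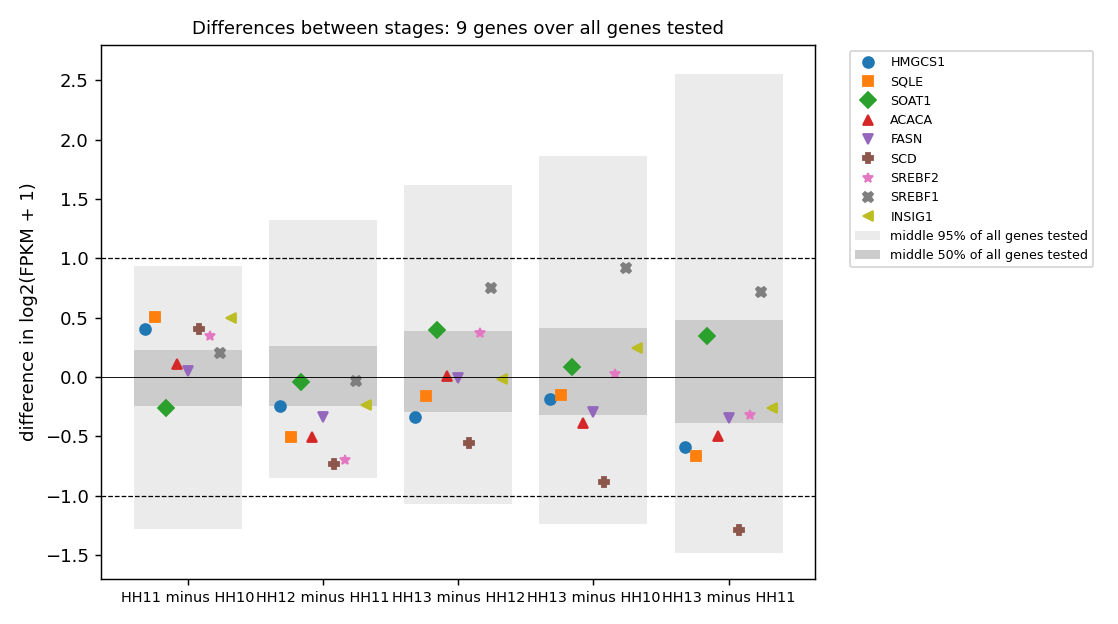
Difference in log2(FPKM + 1) (vertical axis) for 5 pairs of stages (horizontal axis): coloured symbols are the 9 genes, and light and dark grey bars the middle 95% and 50% of the 11773 genes tested. Dashed lines mark 2-fold. SCD passes the line at -1.28 in HH13 minus HH11, and no other symbol passes it.

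The authors' deposited table gives p-values and q-values for each pair, made from 1 library a stage. In the authors' deposited table no member had a q-value below 0.05 in any of the 6 pairs, where 0.245% of all rows did in HH10-HH11, 0.234% in HH10-HH12, 0.655% in HH10-HH13, 0.123% in HH11-HH12, 1.16% in HH11-HH13 and 0.333% in HH12-HH13. The smallest member p-value in the authors' deposited table was that of SCD in HH11-HH13, 0.0174, with a q-value of 0.526. A straight line over stage number was fitted to every gene with limma on 2 residual degrees of freedom. A course with its peak in HH11 departs from such a line and counts as error, so this fit did not test that course. limma with Benjamini-Hochberg adjustment called 0 of 9 members and 0 of 11773 genes (0%). At an unadjusted p below 0.05 it had 0 members and 9.44% of all genes. The members nearest to a call were SCD, with a slope of -0.34 ± 0.13 log2 units per stage (SE) and an adjusted p of 0.523 by limma, and SREBF1, with 0.27 ± 0.11 and an adjusted p of 0.525 by limma. Without HH10, SCD had a slope of -0.64 and an adjusted p of 0.0391 by limma. That fit had 1 residual degree of freedom and called 844 of 11773 genes. Over all alternatives the adjusted p of SCD ran from 0.0391 to 0.978.

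The rest of the cholesterol pathway, in enzymes listed by textbook order, largely had the course of HMGCS1 and SQLE. Of 14 measured enzymes of 17 listed, 9 had their highest value in HH11, 3 in HH12 and 2 in HH13. Without the row named EBP, whose identity is unsettled, these counts were 9, 3 and 1 of 13. Of all genes, 28.4%, 19.5% and 33.6% were highest in these libraries as deposited. At the same total FPKM 47.6% of all genes were highest in HH11, and the enzymes were not recounted at that scaling. The median HH11 minus HH10 was 0.41, and 12 of the 14 were higher in HH11 (12 of 13 without EBP), as were 51.8% of all genes. CYP51A1, the lanosterol demethylase, had 42.7, 65.0, 42.3 and 35.9 FPKM in stage order, and FDFT1, the squalene synthase just before SQLE, had 71.6, 101, 75.3 and 61.9 FPKM. Both had the same order of libraries at the top and the bottom as SQLE. MSMO1, a sterol demethylation enzyme, had the furthest difference above 0 at the first step, 0.62, with 104 FPKM in HH11 and 66.9 FPKM in HH10, but was highest in HH12, at 106 FPKM. MVD, the mevalonate diphosphate decarboxylase, was the furthest below at the second, -0.67, with 57.0 FPKM in HH12 and 91.6 FPKM in HH11.

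Some enzymes of the pathway departed from that course. FDPS, the farnesyl diphosphate synthase and the enzyme of the list with the highest mean, had 298, 339, 409 and 203 FPKM, and passed the 2-fold line downward in HH13 against HH12, at -1.008, but not with a pseudocount of 5, at -0.99. ACAT2, the cytosolic thiolase before HMGCS1, was highest in HH13, at 120 FPKM, and lowest in HH11, at 82.7 FPKM. The row named EBP, 267 bases on chromosome 11 at 9780741 to 9781007, had 14.4, 7.02, 10.3 and 40.9 FPKM and was the enzyme row at least 2-fold higher in HH13 than in HH10. Its identity was not settled here. Without it, 0 of the other 13 enzymes were 2-fold apart in HH13 against HH10. Of all genes, 9.39% were 2-fold higher and 4.06% lower in that pair. The median HH11 minus HH10 of the 13 was 0.43.

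**Figure D3:**
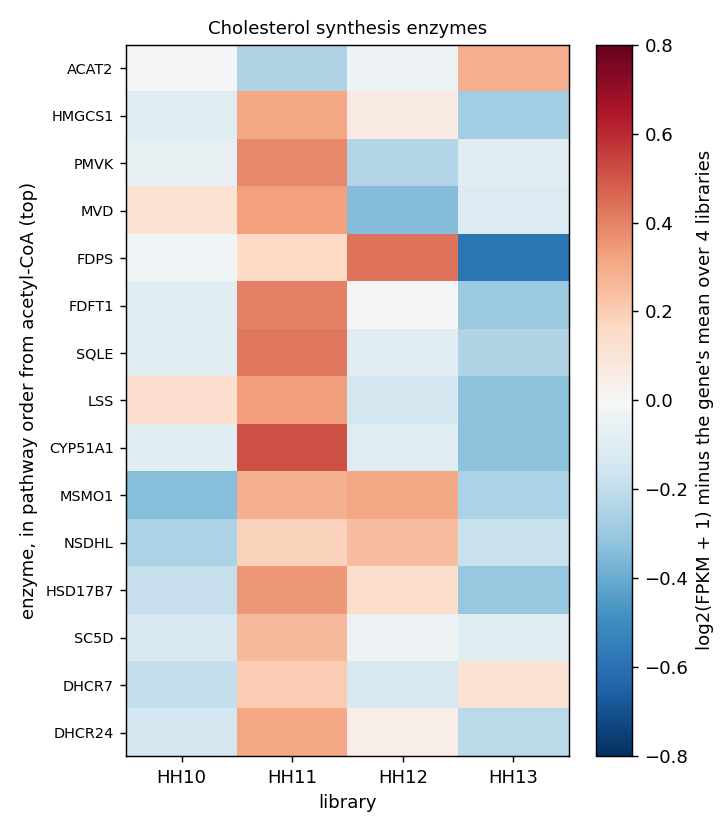
Log2(FPKM + 1) minus each gene's mean over the 4 libraries (colour) for 15 cholesterol synthesis enzymes in pathway order (rows, HMGCS1 and SQLE included, EBP left out) and the HH10, HH11, HH12 and HH13 libraries (columns). The HH11 column is above the mean for 14 of the 15, with ACAT2 below it, where the median of all genes tested is 0.01. Of the 15, 11 are highest in HH11 as deposited, as are 28.4% of all genes. At the same total FPKM 47.6% of all genes are highest there, and the 15 were not recounted at that scaling.

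Genes that supply, lengthen and desaturate fatty acids did not share 1 course. Of 20 tested, 8 were highest in HH13 (33.6% of all genes), 7 in HH12 (19.5%), 4 in HH11 (28.4%) and 1 in HH10 (18.4%). The median HH11 minus HH10 was 0.03. ACLY, the citrate lyase that supplies acetyl-CoA, matched through the synonym ACL, had 104, 118, 99.8 and 80.4 FPKM in stage order, as SCD highest in HH11 and lowest in HH13. Its upstream partner SLC25A1, the mitochondrial citrate carrier, had 100.002, 62.5, 120 and 250.3 FPKM, lowest in HH11 and highest in HH13. FADS1 and FADS2, the desaturases of polyunsaturated fatty acids, had 37.3, 14.2, 42.0 and 77.0 FPKM and 66.3, 20.4, 42.1 and 99.1 FPKM, opposite to SCD in the libraries that were highest and lowest. ELOVL1, an elongase of very long chains, had the highest mean of the list and 238, 324, 319 and 196 FPKM. ELOVL6, which lengthens the palmitate that FASN makes, had 27.2, 27.0, 23.0 and 14.7 FPKM, lowest in HH13 like SCD. ELOVL2 had 5.61 FPKM in HH13 and 0.393 FPKM in HH10, ELOVL7 had 15.6 FPKM in HH11 and 8.06 FPKM in HH10, and ACSL1, which activates fatty acids, had 95.002 FPKM in HH13 and 187 FPKM in HH12. Past 2-fold in HH13 against HH10 were 4 of the 20, SLC25A1, ELOVL2, FADS1 and ACSL5, each higher in HH13, where 9.39% of all genes were past 2-fold higher. With a pseudocount of 5, ELOVL2 and FADS1 were not past it, at 0.98 and 0.95.

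SREBP control and sterol trafficking genes were mixed as well, with 6 of 13 tested highest in HH13 (33.6% of all genes), 4 in HH11 (28.4%) and a median HH13 minus HH10 of 0.06. INSIG2, ABCG1 and MYLIP were 2-fold or more higher in HH13 than in HH10, as were 9.39% of all genes, and with a pseudocount of 5 ABCG1 was not, at 0.41. SCAP, the escort of SREBP, and the proteases MBTPS1 and MBTPS2, which cut it, were not 2-fold apart in any of the 6 pairs. SCAP had 25.4, 28.4, 23.0 and 22.7 FPKM in stage order. INSIG2, the second INSIG gene, had 14.2, 15.9, 22.8 and 33.6 FPKM, higher in each later library, while INSIG1 was highest in HH11. NPC1 and NPC2 release cholesterol from lysosomes. NPC1 had 70.5, 87.8, 63.0 and 38.7 FPKM, highest in HH11 and lowest in HH13 as SCD was, and NPC2, the list's highest at a mean of 2085 FPKM, was highest in HH12. STARD4, a sterol carrier on Z, had 16.7, 11.5, 10.3 and 8.55 FPKM. LPIN1, a phosphatidate phosphatase, had 1.91, 3.79, 2.37 and 1.30 FPKM.

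Esterification and storage genes, the group to which SOAT1 belongs by function, were mostly lowest in the library where 7 members were highest. Of 14 tested, 12 were lowest in HH11 and 11 highest in HH13. The shares of all genes were 26.3% and 33.6%. Past 2-fold in HH13 against HH10 were 7 higher and 1 lower, where 9.39% and 4.06% of all genes were, and with a pseudocount of 5 AGPAT2 was not past it, at 0.97. The median HH11 minus HH10 was -0.50, or -0.19 at the same total FPKM, and the median HH13 minus HH10 was 1.02. MOGAT1, a monoacylglycerol acyltransferase, had 252 FPKM in HH13 and 45.6 FPKM in HH10, and 20.0 FPKM in HH11. LCAT, which esterifies cholesterol on lipoproteins, had 24.6, 9.08, 30.2 and 81.4 FPKM in stage order, and MTTP, which loads lipid onto apolipoprotein B, had 10.5, 4.12, 16.8 and 26.8 FPKM. PLIN2, a lipid droplet coat gene on Z, was the one lower in HH13, with 38.1 FPKM against 156 FPKM in HH10. PLIN3, another droplet coat gene, had the highest mean of the list, 127 FPKM, and AGPAT5, an acyltransferase, was the gene above 0 at the first step, at 0.18. SOAT1 shared with most of this group a value in HH13 above the other libraries and, as deposited, a lower value in HH11 than in HH10, at a smaller size. It differed from them slightly in HH12, its lowest library, with 80.5 FPKM against 83.2 FPKM in HH11, or -0.05 in log2(FPKM + 1). Of the 14, 13 were higher in HH12 than in HH11, as were 50.2% of all genes. At the same total FPKM all 9 members, SOAT1 included, were higher in HH11 than in HH10. That scaling raises HH11 in general, and the median of all genes was then 0.30. The yolk sac endoderm markers, given above, had the same lowest and highest libraries as MOGAT1, LCAT and MTTP. So did the sums of the endothelial, primitive blood and mesenchyme markers. The part of these markers' cells in the values was not tested.

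Fatty acid oxidation genes, the breakdown route, were mostly highest in HH13. Of 15 tested, 12 were highest in HH13, where 33.6% of all genes were, and 9 lowest in HH11, where 26.3% were. Their median HH13 minus HH10 was 0.35, and 1 of 15, ACADL, was past 2-fold higher, next to 9.39% of all genes. Their median HH11 minus HH10 was -0.05 as deposited and 0.26 at the same total FPKM, so its sign depends on the scaling. ACADL, a long-chain acyl-CoA dehydrogenase, had 127, 154, 224 and 294 FPKM in stage order. HADHA, a subunit of the trifunctional protein, had the highest mean and 251, 241, 274 and 319 FPKM. ACAA2, a thiolase gene on Z, had 203, 69.5, 137 and 207 FPKM. ACADS, a short-chain acyl-CoA dehydrogenase, was highest in HH11, with 52.7 FPKM there and 33.4 FPKM in HH10. PPARA, a nuclear receptor that turns on this route in mammals, had 15.7, 18.7, 19.9 and 15.1 FPKM. ACACA and FASN, the synthesis enzymes, were lower in HH13 than in HH10, at -0.39 and -0.29.

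**Figure D4:**
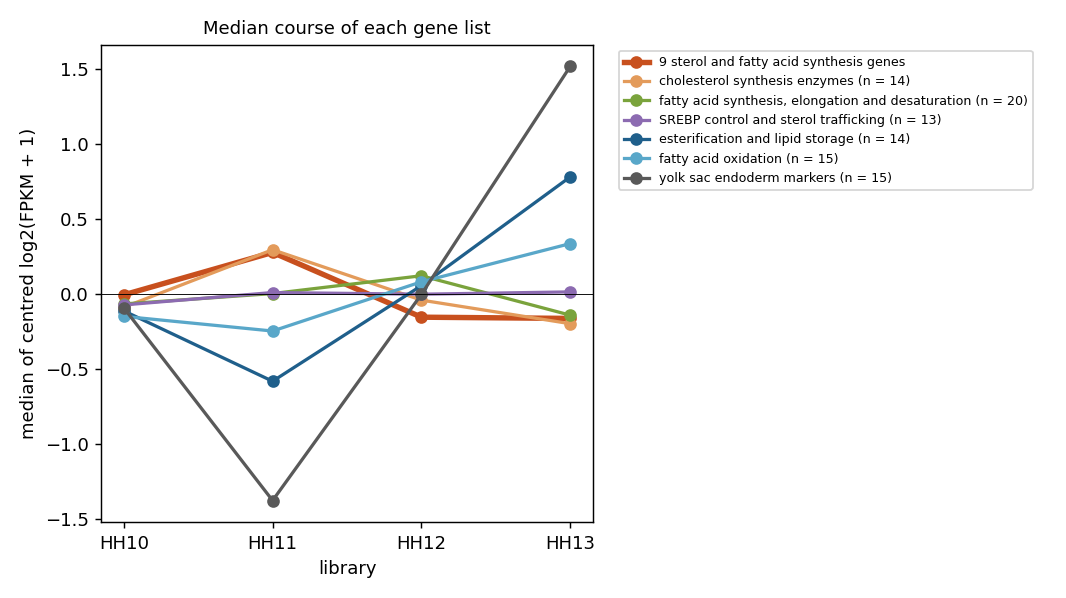
Median over each list of log2(FPKM + 1) minus the gene's mean (vertical axis) in the HH10, HH11, HH12 and HH13 libraries (horizontal axis). The 9 genes (thick line) stand at 0.28 in HH11, close to the other cholesterol synthesis enzymes at 0.30, while esterification and storage genes are at -0.58 and yolk sac endoderm markers at -1.38 there.

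Genes outside the set with a course like the members' mean were ranked by distance. Among 7473 genes with a symbol and a mean of at least 5 FPKM, the nearest by root mean square distance over the 4 libraries were RBL2, OVCA2, ZBTB37, TCF20 and ITPKB, at 0.0113 to 0.0261 log2 units. RBL2, a pocket protein of the cell cycle, had 5.34, 6.45, 4.86 and 4.96 FPKM in stage order. With 4 libraries and this many genes, such closeness describes shape only.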

How the data were processed

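Reads were handled with TopHat2 2.0.8, Cufflinks and Cuffdiff on build galGal4, per the submitters' processing notes. The deposited values are FPKM per gene, per the file headers, with the authors' p-values and q-values for each pair of stages. They hold no counts: depth is unknown and count models were not used. Deposited starts were printed 1 higher, taken to count from 0. Rows of 1 symbol were summed, giving 17018 genes from 17108 rows, and genes with at least 1 FPKM in 1 library were kept. Values were taken as log2(FPKM + 1), and a difference of at least 1 was called. The stage trend used limma 3.58.1 in R 4.3.3 (eBayes with trend, two-sided), tested on simulated data. Python 3.11.15, pandas 2.3.3, numpy 2.4.6 and matplotlib 3.10.9 did the rest.

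The members and the lists (5 of lipid genes, 6 of cell type markers) were chosen with earlier results of these data known. Some genes of these pathways are not reported here. Missing names were looked up among RefSeq synonyms on the same chromosome. Named list genes are those with the highest mean and the largest differences up and down in 4 pairs of stages; others are named as neighbours in the pathway or were chosen after their values were seen. No sequences are printed.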

Additional observations from a re-analysis of the deposited data

How the results depend on the processing

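Alternatives were pseudocounts of 0.1 and 5, no filter, a 5 FPKM filter, the highest row per symbol, 3 other scalings, thresholds of 1.5-fold and 4-fold, numbered chromosomes only, HH11 as the early stage, each stage left out of the trend, robust eBayes and, chosen after seeing the data, the 8 members matched by name. The number of members highest in HH11 was 7 in each of these that bears on it, except 6 on numbered chromosomes, where HMGCS1 drops out. Pseudocounts, filters and the highest row per symbol could not change this number here, and only the scalings could. Of all genes, 28.4% were highest in HH11 as deposited and 47.6% at the same total FPKM. The share was 41.9% at the same total without globin, ribosomal RNA and mitochondrial rows. Of 36 member differences under 8 settings, 284 of 288 values kept their sign and side of the 2-fold line. Much of this was fixed in advance. The changes of filter and the highest row per symbol left every member difference as it was, and a pseudocount cannot change a sign. Only the scalings could change a sign. SREBF1 passed it in HH13 against HH10 at the same total FPKM (1.01) and at the same total without globin, ribosomal RNA and mitochondrial rows (1.03), so members at least 2-fold higher there numbered 1 under each, because those scalings raise HH13 against HH10. At 1.5-fold, members numbered 1 higher (19% of all genes) and 1 lower (11.5%) in HH13 against HH10, 2 lower in HH12 against HH11 (6.9%), 1 higher in HH13 against HH12 (17.7%), and 3 lower (14.8%) and 1 higher (22.2%) in HH13 against HH11. With HH11 as the early stage, 1 member was at least 2-fold lower in HH13 (5.39% of all genes). SCD in HH13 minus HH11 ran from -1.50 to -1.16. The stage trend called 1 member, SCD, without HH10, where it called 844 of all 11773 genes. In the other fits it called 0 members and at most 1 of all genes. The cause was not tested. Over all genes, HH11 against HH10 had 255 higher and 509 lower as deposited, 506 and 322 at the same total, and 407 and 366 at the same total without those rows. HH12 against HH11 had 520 and 186 as deposited, against 445 and 265 with totals made equal, and HH13 against HH11 had 1543 and 634, and 1317 and 1012. The genes 2-fold apart numbered 303 to 1451 over the settings for HH11 against HH10 (764 as reported), 282 to 1300 for HH12 against HH11 (706), 575 to 2059 for HH13 against HH12 (1351), 748 to 2257 for HH13 against HH10 (1584) and 1114 to 2892 for HH13 against HH11 (2177). No paired analysis was possible because each stage has 1 library. Depth is unknown, so counting error cannot be given.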

Other observations

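Of the 13 tested genes of the sterol trafficking list, 6 were highest in HH13, the library where SREBF1 was highest. Of these, ABCA1, ABCG1, MYLIP and NR1H3 are given here because of their known link to oxysterol receptors in mammals. INSIG2, lowest in HH10, and MBTPS2, lowest in HH11, were also highest in HH13 and were left out. The genes given were thus chosen after their values were seen, and no test bears on them as a group. A part of these receptors in the values was not tested. ABCA1, the cholesterol efflux pump on chromosome Z, had 11.8, 2.17, 5.85 and 20.4 FPKM in HH10, HH11, HH12 and HH13. ABCG1, a related transporter, had 0.742, 0.221, 0.558 and 2.65 FPKM. MYLIP, which in mammals marks the LDL receptor for breakdown, had 9.26, 2.39, 10.7 and 45.6 FPKM. In mammals these 3 genes and SREBF1 are targets of the oxysterol receptors, one of which is NR1H3; its row, matched through the synonym LXR, had 13.7, 13.3, 17.2 and 21.1 FPKM. ABCA1, ABCG1, MYLIP and NR1H3 were lowest in HH11, and SREBF1 was lowest in HH10. SCD and FASN are also known targets of these receptors in mammals, and both were highest in HH11 and lowest in HH13. For FASN these places were near ties. It had 34.4 FPKM in HH11 and 33.2 FPKM in HH10, and 26.9 FPKM in HH13 and 27.0 FPKM in HH12. In the authors' deposited table MYLIP had a q-value of 0.0109 in HH10-HH13, where 0.655% of all rows were below 0.05. ABCA1 had 0.0109 in HH11-HH13, where 1.16% were. ABCG1 and NR1H3 had no q-value below 0.05 in any pair of the authors' deposited table, and SREBF1 had 0.999 in every pair. The yolk sac endoderm markers were also lowest in HH11 and highest in HH13. So were the sums of the endothelial, primitive blood and mesenchyme markers. The part of these markers' cells in the values was not tested.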
